A study of Mus musculus with 3 samples.

Results

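Integrins are the cell surface receptors through which cells hold the extracellular matrix, and the genes described here are the mouse integrin subunits together with the adaptor proteins that tie them to the actin cytoskeleton. The members were taken as every gene whose symbol, found through the RefSeq accession of an array probe, had the form of an integrin alpha or beta subunit or stood on a list of 38 names. The list named 26 integrin subunits (18 alpha and 8 beta) and 12 adaptors, and the pattern alone added the integrin beta-like genes *Itgb2l* and *Itgbl1*. This gave 40 genes of the 22911 that the array names, read by 61 probes.

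The RNA came from cultures of Colon26, a murine colon adenocarcinoma line, and of its sublines LuM1 and NM11. The labels call LuM1 highly metastatic, and the study contrasted it with NM11 and with the parental Colon26 cells, which it describes as slowly metastatic. All 3 lines are of the BALB/c strain and labelled female, were kept in RPMI1640 medium with 10% serum and antibiotics for 3 days, and received no agent. Each line was hybridized to 1 single-colour Agilent array, so cell line, culture and array cannot be told apart, no test was run and no difference has a replicate check.

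An integrin is a pair of 1 alpha and 1 beta subunit, and the pairing sets which matrix protein or counter-receptor it binds. Talins and kindlins bind the tails of the beta subunits and switch the receptor on. Integrin-linked kinase, the parvins, focal adhesion kinase, paxillin, vinculin and zyxin then build the focal adhesion, the plaque that joins the receptor to actin and passes signals inward. The subunit β4 differs from the rest in pairing with α6 and anchoring keratin filaments at hemidesmosomes. The subunit β3 pairs with αv, and in platelets and their precursors with αIIb.

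Signals are in arbitrary units, with the arrays brought to a common 75th percentile. The error beside a signal is that of the scanner software and covers technical error only. Of several probes for a gene, the one with the highest log2 signal, averaged over the lines, was read. A spot that the software did not call well above background gives only a limit. Its signal was replaced by the lowest one called so on the same array (26.4 in Colon26, 20.1 in LuM1, 19.6 in NM11) where that was larger, and the resulting ratio is introduced by the words at least. A gene counted as higher or lower when it differed at least 2-fold.

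Of the 40 members, 23 were well above background on all 3 arrays, 9 on some of them and 8 on none. The 8 were *Itga4*, *Itga8*, *Itga9*, *Itga11*, *Itgax*, *Itgb8*, *Itgb2l* and *Fermt1*, which encodes the epithelial kindlin. The Colon26 array detected 62.5% of the members, the LuM1 array 70.0% and the NM11 array 67.5%, against 56.9%, 59.9% and 59.1% of all named genes. Of the 32 members detected at all, the LuM1 array alone showed 4 (*Itga2*, *Itgae*, *Itgb3* and *Fermt3*), where it alone showed 4.85% of the named genes detected at all. The NM11 array alone showed 2 (*Itga2b* and *Itgb6*; 3.2% of named genes) and the Colon26 array alone 1 (*Itgad*; 2.79%). The colon epithelium of the label was checked against its markers. Of 9 markers of colon epithelium, 5 including *Cdh1* (E-cadherin) and *Krt18* were detected on no array, and *Epcam* in LuM1 cells alone. *Krt8*, *Krt20* and *Cdx2*, the last a transcription factor of intestinal epithelium, were detected on every array. *Krt20* was 651 in Colon26, 54.5 in LuM1 and 157 in NM11 cells, and *Cdx2* was 443, 232 and 167. *Krt8* went the other way for LuM1 cells, at 28.9 in Colon26, 108 in LuM1 and 37.1 in NM11 cells. All 5 mesenchymal markers including *Vim* (vimentin) were detected on every array.

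In LuM1 cells compared with Colon26 cells, 30 members had a ratio, and 4 of them were higher (*Itga6*, *Itgb3*, *Itgb4* and *Zyx*) and 5 lower (*Itga7*, *Itgad*, *Itgb5*, *Itgb7* and *Itgbl1*). Of all named genes with this ratio, 13.1% were higher and 11.8% lower. In NM11 cells compared with Colon26 cells, 27 members had a ratio, and 3 were higher (*Itga1*, *Itgb4* and *Zyx*) and 3 lower (*Itga3*, *Itgad* and *Itgb7*), against 8.33% and 7.9% of all named genes. In LuM1 compared with NM11 cells, 31 members had a ratio, and 4 were higher (*Itga6*, *Itgb3*, *Itgb4* and *Fermt3*) and 2 lower (*Vcl* and *Itgbl1*), against 11.1% and 8.5%. Both comparisons with Colon26 cells share 1 Colon26 array. The values that the authors scaled by a factor per array raised the median of all genes by 0.45 (log2) for LuM1 over Colon26 and by 0.41 for LuM1 over NM11, and the counts of members and of all named genes moved with it. On them 11 members were higher and 3 lower in LuM1 than in Colon26 cells (3037 and 874 of all named genes), and 7 higher and 1 lower in LuM1 than in NM11 cells (2748 and 629). Signals were also scaled to *Hprt*, which the study used as an internal control for RT-qPCR. On them 5 members were higher and 4 lower in LuM1 than in Colon26 cells (2025 and 1430 of all named genes). The same scaling gave 1 higher and 3 lower in NM11 than in Colon26 cells (686 and 2727 of all named genes), and 8 higher and 1 lower in LuM1 than in NM11 cells (3581 and 498). Signals scaled to the E1A spike-in controls, RNAs added before labelling, gave 2 higher and 3 lower in NM11 over Colon26 (806 and 1971 of all named genes) and 6 higher and 1 lower in LuM1 over NM11 (2389 and 704). Without scaling the members' counts were 6 higher and 4 lower for LuM1 over Colon26 (2036 and 1421 of all named genes) and 2 higher and 3 lower for NM11 over Colon26 (1045 and 1247).

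**Figure D1:**
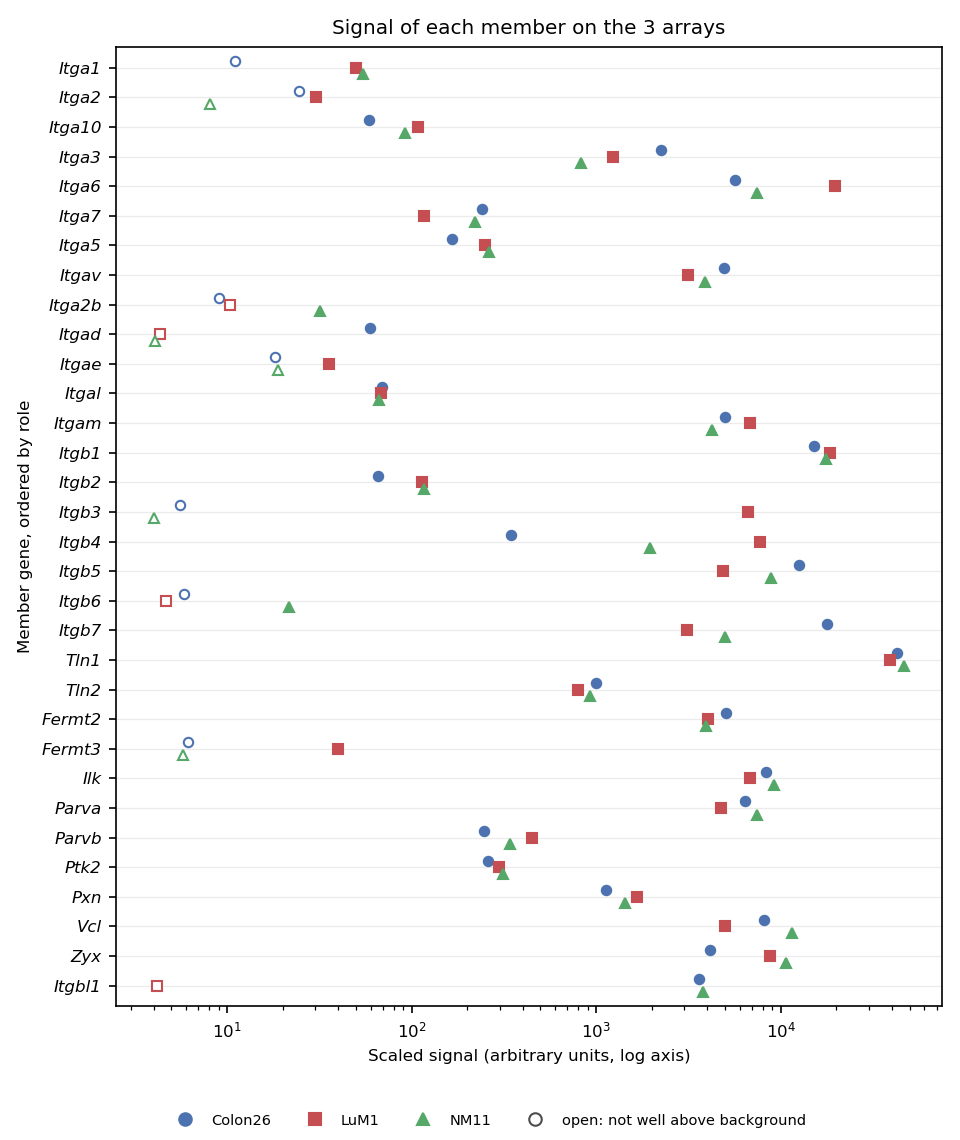
Scaled signal (arbitrary units, log axis) of the 32 members detected on at least 1 array, in Colon26 (circles), LuM1 (squares) and NM11 cells (triangles), with open symbols for spots not well above background. Of the 32, 15 were detected on every array and within 2-fold in all comparisons. The squares of *Itgb3* at 6625 and of *Itgbl1* at 4.198 stand farthest from the other lines, and the symbols of *Itgb4*, *Itgb7* and *Itgad* among others are also apart. Levels of different genes come from different probes and are not comparable.

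The member with the widest difference in favour of LuM1 cells was *Itgb3*, the gene of integrin β3. Its signal (probe A_52_P553890, RefSeq NM_016780) was 6625 ± 662 in LuM1 cells, and it was not well above background in Colon26 cells (5.54 ± 5.59) or in NM11 cells (4.01 ± 4.02). LuM1 cells were thus at least 251-fold above Colon26 cells and at least 339-fold above NM11 cells. Among genes with a bounded ratio in either direction, 15 of 1785 were at least as high over Colon26 cells and 3 of 1560 over NM11 cells, *Itgb3* included in both counts. The other probe for the same transcript gave 414 ± 41.6 in LuM1 cells and no signal well above background in the others, or at least 15.7-fold and 21.2-fold higher.

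The alpha partners of β3 did not share this difference. *Itgav*, the gene of αv, was within 2-fold in every comparison at 4943 ± 494 in Colon26, 3163 ± 316 in LuM1 and 3911 ± 391 in NM11 cells, though its only probe lay on a region of the Colon26 array where spots detected on that array alone were clustered. *Itga2b*, the gene of αIIb, was detected in NM11 cells alone at 32.0 ± 5.21, with a bound of at least 1.21-fold over Colon26 cells. Since αIIb and β3 are known from platelets, the 4 markers of platelets and megakaryocytes were read beside them. None of the 4 was detected in Colon26 cells, 2 were in LuM1 cells and 1 was in NM11 cells, and their summed signal was 24.9, 84921 and 40.4, the first made up of spots not well above background. The chemokine gene *Pf4* was 84791 in LuM1 cells and not detected in the others, and *Ppbp*, another platelet chemokine gene, was 121 in LuM1 and 27.9 in NM11 cells. The platelet receptor genes *Gp9* and *Gp1ba* were detected on no array. *Fermt3*, the kindlin of blood cells that activates β3 in platelets, was detected in LuM1 cells alone at 40.0 ± 6.22, at least 1.51-fold higher than in Colon26 and at least 2.04-fold higher than in NM11 cells. The latter bound fell under 2-fold after quantile normalization and after normexp correction. The part of other cells in these values was not tested, and in RNA from a whole culture a change in cell types and a change in RNA per cell cannot be told apart.

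*Itgb4*, the gene of integrin β4, was detected in all lines and differed between every pair of them. Its single named probe (A_51_P408382, RefSeq NM_001005608) gave 348 ± 35.3 in Colon26, 7750 ± 775 in LuM1 and 1973 ± 197 in NM11 cells. LuM1 cells were the highest, NM11 cells lay between, and Colon26 cells were the lowest. The level in LuM1 cells was 22.3-fold that in Colon26 cells (log2 ratio 4.48, scanner error 0.21) and 3.93-fold that in NM11 cells (log2 ratio 1.97), and the level in NM11 cells was 5.67-fold that in Colon26 cells (log2 ratio 2.50). Measured ratios at least as high belonged to 70 of 12394 genes for LuM1 over Colon26, 347 of 12848 for LuM1 over NM11 and 171 of 12469 for NM11 over Colon26.

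*Itga6*, which encodes the only alpha subunit that pairs with β4 and can also pair with β1, was highest in LuM1 cells as well. The signal was 5697 ± 570 in Colon26, 19845 ± 1985 in LuM1 and 7444 ± 744 in NM11 cells (probe A_55_P2015670, RefSeq NM_008397). LuM1 cells were 3.48-fold above Colon26 cells (log2 ratio 1.80, scanner error 0.20) and 2.67-fold above NM11 cells (log2 ratio 1.41). NM11 and Colon26 cells differed by a log2 ratio of 0.39, within 2-fold but beyond the scanner error. Both other *Itga6* probes were also higher in LuM1 cells, one with log2 ratios of 1.70 over Colon26 and 1.40 over NM11 cells and a spot on that clustered region, and the other, of RefSeq NM_001277970, at least 2.32-fold above Colon26 cells and with a log2 ratio of 1.48 over NM11 cells. *Itga6*, *Itgb3* and *Itgb4* were the 3 members of 29 with both ratios for which LuM1 exceeded both other lines by at least 2-fold, as 7.9% of all named genes did.

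The other laminin-binding alpha subunits were not higher in LuM1 than in Colon26 cells. *Itga3*, whose α3 binds laminin with β1, had a signal of 2256 ± 226 in Colon26, 1229 ± 123 in LuM1 and 824.5 ± 82.6 in NM11 cells. Colon26 cells were the highest and NM11 cells the lowest, with log2 ratios of -0.88 for LuM1 and -1.45 for NM11 over Colon26 (scanner error 0.20), the latter 2.74-fold lower. The dimmer *Itga3* probe kept the order with smaller differences, -0.25 and -0.84. *Itga7*, the α7 of muscle, was 241 ± 24.9 in Colon26, 117.5 ± 12.7 in LuM1 and 222 ± 22.6 in NM11 cells. LuM1 cells were the low line, with a log2 ratio of -1.04 over Colon26 (scanner error 0.22) and of -0.92 over NM11 cells, and the former lay within 2-fold without scaling, after scaling to *Hprt*, on the authors' values and after normexp background correction.

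Among the collagen-binding subunits, *Itga1* (α1) was not well above background in Colon26 cells (11.01 ± 6.27) and was 49.9 ± 6.91 in LuM1 and 54.7 ± 7.10 in NM11 cells. NM11 cells were at least 2.07-fold and LuM1 cells at least 1.89-fold above Colon26 cells, and the former bound fell under 2-fold without scaling and after scaling to *Hprt* or the E1A controls, and no ratio was had after normexp correction or with the probe brightest in LuM1 cells. The sublines differed by a log2 ratio of -0.13 for LuM1 over NM11, inside the scanner error of 0.27. The 2 probes of *Itga1* disagreed, since the other was detected in LuM1 cells alone (132 ± 13.9), at least 4.996-fold above Colon26 and at least 6.74-fold above NM11 cells. *Itga2*, the α2 of the collagen receptor of platelets and epithelia, was detected in LuM1 cells alone at 30.3 ± 5.21, at least 1.15-fold and 1.55-fold above the other lines. *Itga10* was within 2-fold throughout, and *Itga11* was on no array.

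The beta subunits *Itgb5* and *Itgb7* were highest in Colon26 cells. *Itgb7*, the partner of α4 and αE in lymphocyte homing to the gut, had a signal of 17761 ± 1776 in Colon26, 3109 ± 311 in LuM1 and 4990 ± 499 in NM11 cells (probe A_51_P359603, RefSeq NM_013566). It was 5.71-fold lower in LuM1 cells (log2 ratio -2.51) and 3.56-fold lower in NM11 cells (log2 ratio -1.83), each with a scanner error of 0.20. Measured ratios at least as low belonged to 145 of 12394 and 178 of 12469 genes. Of its alpha partners, *Itga4* was on no array and *Itgae* (αE) was detected in LuM1 cells alone at 35.8 ± 6.18. *Itgb5*, a partner of αv in the binding of vitronectin, had a signal of 12530 ± 1253 in Colon26, 4849 ± 485 in LuM1 and 8832 ± 883 in NM11 cells. LuM1 cells were lowest, at 2.58-fold below Colon26 cells (log2 ratio -1.37) and a log2 ratio of -0.87 against NM11 cells. The LuM1 over Colon26 ratio of *Itgb5* was within 2-fold on the authors' values, at -0.92.

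*Itgbl1*, which encodes a secreted protein related to the stalk of beta integrins, had the reverse pattern of *Itgb3*. Its signal (probe A_55_P2060243, RefSeq NM_145467) was 3612 ± 361 in Colon26 and 3805 ± 380 in NM11 cells, and in LuM1 cells it was 4.198 ± 4.209 and not well above background. LuM1 cells were at least 179-fold below Colon26 and at least 189-fold below NM11 cells. Colon26 and NM11 cells differed by a log2 ratio of 0.07, inside the scanner error. Bounded ratios at least as low belonged to 7 of 1785 genes over Colon26 and 5 of 1560 over NM11 cells, *Itgbl1* included. It was the only member of 29 for which LuM1 lay at least 2-fold under both other lines, against 4.34% of all named genes.

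The genes of integrins known from leukocytes were mixed. *Itgam*, whose αM is a marker of myeloid cells, was bright in every line at 5027 ± 503 in Colon26, 6818 ± 682 in LuM1 and 4251 ± 425 in NM11 cells. On this probe it stayed within 2-fold, with log2 ratios of 0.44 for LuM1 over Colon26, -0.24 for NM11 over Colon26 and 0.68 for LuM1 over NM11. Its other probe, of RefSeq NM_008401, was dim (63.4 in Colon26, 17.9 in LuM1 and 31.0 in NM11 cells) and lay on the clustered region of the Colon26 array. There LuM1 cells were at least 3.15-fold below Colon26 cells, opposite in direction to the brighter probe. NM11 cells were 2.05-fold below Colon26 cells on it (log2 ratio -1.03). *Itgb2*, the β2 that pairs with αM, was 65.5 ± 8.56 in Colon26, 114 ± 12.2 in LuM1 and 117 ± 12.4 in NM11 cells, and *Itgal* (αL) lay between 67.0 and 69.4 in the 3 lines. *Itgad* (αD) was detected in Colon26 cells alone at 59.8 ± 8.19, at least 2.97-fold above LuM1 and at least 3.06-fold above NM11 cells. Only the bound over NM11 cells fell under 2-fold after normexp correction. The *Itgad* spot also lay on that region, and its other probe was on no array. Of 10 leukocyte markers, 4 including *Ptprc* (CD45), *Adgre1* (F4/80) and *Spi1* (PU.1) were detected on no array, and the summed signal of the list was 2709 in Colon26, 10773 in LuM1 and 2563 in NM11 cells. Of the markers detected, *Cd68* and *Cd14* were higher in LuM1 than in Colon26 cells by log2 ratios of 4.93 and 1.86 and *Lyz2* by at least 4.24-fold, whereas *Csf1r* and *Cd3e* were within 2-fold at 0.02 and -0.30. *Cd79a* went the other way. It was detected in Colon26 cells alone at 39.6, at least 1.97-fold above LuM1 and at least 2.02-fold above NM11 cells. The part of leukocytes in the integrin values was not tested.

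**Figure D2:**
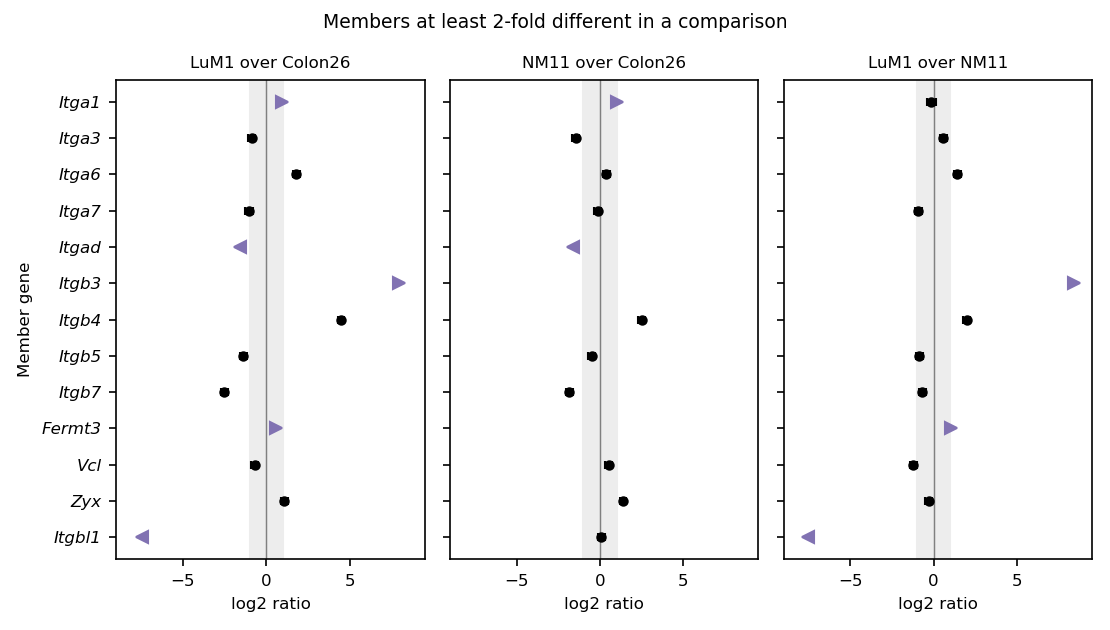
Log2 ratios of the 13 members that differed at least 2-fold in any comparison, in 1 panel for each comparison, with points for measured ratios (bars are the scanner error) and triangles for bounds, which point away from 0. The grey band marks differences under 2-fold; *Itgb4* lies to its right in all panels at 4.48, 2.50 and 1.97, and *Itgb7* to its left in both comparisons with Colon26 cells at -2.51 and -1.83.

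Of the 12 adaptors, 10 were detected on every array, and 8 of these were within 2-fold in all comparisons, as were 72.9% of all named genes detected on every array. *Vcl* and *Zyx* were not, *Fermt3* was on the LuM1 array alone, and *Fermt1* was on none. The 8 held the talins *Tln1* and *Tln2*, the kindlin *Fermt2* and all 3 of *Ilk*, *Parva* and *Parvb*, which encode integrin-linked kinase and the parvins it binds. *Tln1*, the main talin outside muscle and brain, was 42489 ± 4249 in Colon26, 39192 ± 3919 in LuM1 and 46926 ± 4693 in NM11 cells. *Ptk2* (focal adhesion kinase) and *Pxn* (paxillin) completed the 8. For 2 of these genes a dimmer probe crossed the threshold, as *Tln2* had log2 ratios of -1.66 for LuM1 and -1.08 for NM11 over Colon26 on its other probe, and *Pxn* had -1.08 for LuM1 over Colon26 on a probe of RefSeq NM_011223 against 0.57 on its brighter one.

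*Zyx* encodes zyxin, which gathers at adhesions under tension. The signal of *Zyx* was 4145 ± 415 in Colon26, 8781 ± 878 in LuM1 and 10759 ± 1076 in NM11 cells. Colon26 cells were the low line, with log2 ratios of 1.08 for LuM1 (2.12-fold) and 1.38 for NM11 (2.60-fold), each with a scanner error of 0.20, and the sublines differed by -0.29 for LuM1 over NM11. After scaling to *Hprt* the NM11 ratio was within 2-fold at 0.89. *Vcl*, the gene of vinculin, which links talin to actin, was 8097 ± 810 in Colon26, 4976 ± 498 in LuM1 and 11546 ± 1155 in NM11 cells. LuM1 cells were lowest and NM11 cells highest, 2.32-fold apart (log2 ratio -1.21), and each lay within 2-fold of Colon26 cells at -0.70 and 0.51. The sublines were also within 2-fold of each other for *Vcl* after scaling to *Hprt* or the E1A controls, after quantile normalization and on the authors' values.

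In all, 15 of the 23 members detected on every array were within 2-fold in every comparison, against the 72.9% of all named genes. They included *Itgb1*, the β1 that most alpha subunits share, at 15219 ± 1522 in Colon26, 18627 ± 1863 in LuM1 and 17630 ± 1763 in NM11 cells, and *Itga5*, whose α5 pairs with β1 as the fibronectin receptor. The 15 spanned log2 ratios from -0.64 (*Itgav*) to 0.90 (*Itga10*) for LuM1 over Colon26, from -0.36 (*Fermt2*) to 0.84 (*Itgb2*) for NM11 over Colon26 and from -0.66 (*Parva*) to 0.68 (*Itgam*) for LuM1 over NM11. Over all members measured on both arrays, the median log2 ratio was -0.02 for LuM1 over Colon26 (23 members), 0.18 for NM11 over Colon26 (24) and -0.07 for LuM1 over NM11 (24). Over all named genes it was -0.13, -0.02 and -0.11. The first and last of the member medians turned positive without scaling, on the authors' values and after scaling to *Hprt*, the first also after quantile normalization, after scaling to the median of measured probes, with clustered spots left out and under a looser detection rule, and the last also after scaling to the E1A controls and with no filter. The middle one turned negative after scaling to *Hprt* or to the E1A controls.

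**Figure D3:**
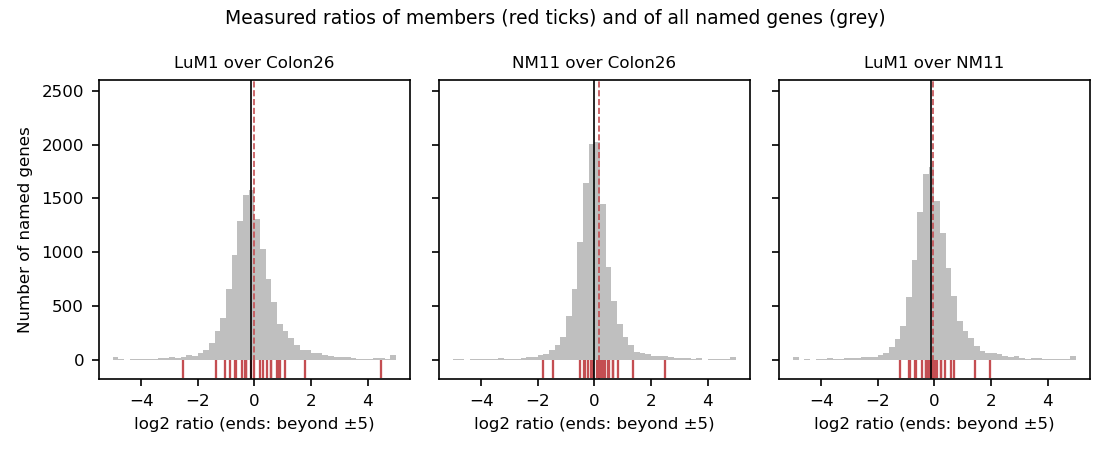
Histograms of the measured log2 ratios of all named genes (grey; number of genes per bin, values beyond 5 in either direction placed in the end bins) with those of the members as red ticks, in 1 panel for each comparison. The solid line is the median of all genes and the dashed line that of the members, -0.13 and -0.02 for LuM1 over Colon26; most red ticks lie within the grey peak.

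The reference table held promoters of 28 of the 40 members and lacked, among others, *Itga6*, *Itgb3* and *Itgb4*. Of the 8 members in it that differed at least 2-fold between lines, 4 are shown, chosen after their values were seen for differences that follow the sublines or LuM1 cells. Each runs from 250 bases before to 50 bases after the start in RefSeq's GRCm38.p6, 5′ to 3′ on the gene's strand. Capitals mark matches, on either strand, to the motifs of AP-1 (TGANTCA), Sp1 (GGGCGG) and PU.1 (GAGGAAGT). *Zyx*, higher in both sublines, lies at chr6:42349578-42349877 (plus strand). *Itgb7*, lower in both, lies at chr15:102231886-102232185 (minus strand). *Itgb5*, lower in LuM1 cells, lies at chr16:33829415-33829714 (plus strand). *Itgbl1*, not detected in LuM1 cells, lies at chr14:123659890-123660189 (plus strand).
Zyx: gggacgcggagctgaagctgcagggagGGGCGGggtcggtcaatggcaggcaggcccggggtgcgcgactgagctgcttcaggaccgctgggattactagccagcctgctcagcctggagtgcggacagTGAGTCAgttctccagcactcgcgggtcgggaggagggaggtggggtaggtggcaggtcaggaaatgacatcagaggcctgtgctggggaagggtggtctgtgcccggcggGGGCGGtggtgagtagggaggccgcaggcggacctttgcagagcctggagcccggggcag
Itgb7: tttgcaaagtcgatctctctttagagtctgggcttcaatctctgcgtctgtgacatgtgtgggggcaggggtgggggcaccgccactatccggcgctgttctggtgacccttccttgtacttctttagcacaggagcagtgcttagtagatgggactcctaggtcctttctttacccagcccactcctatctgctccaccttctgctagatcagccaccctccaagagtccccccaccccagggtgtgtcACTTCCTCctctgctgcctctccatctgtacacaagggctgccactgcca
Itgb5: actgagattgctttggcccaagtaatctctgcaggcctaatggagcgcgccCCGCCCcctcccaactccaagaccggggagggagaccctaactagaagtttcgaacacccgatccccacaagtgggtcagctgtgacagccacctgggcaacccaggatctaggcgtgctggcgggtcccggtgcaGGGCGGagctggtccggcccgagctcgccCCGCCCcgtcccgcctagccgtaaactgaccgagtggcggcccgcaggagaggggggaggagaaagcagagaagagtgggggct
Itgbl1: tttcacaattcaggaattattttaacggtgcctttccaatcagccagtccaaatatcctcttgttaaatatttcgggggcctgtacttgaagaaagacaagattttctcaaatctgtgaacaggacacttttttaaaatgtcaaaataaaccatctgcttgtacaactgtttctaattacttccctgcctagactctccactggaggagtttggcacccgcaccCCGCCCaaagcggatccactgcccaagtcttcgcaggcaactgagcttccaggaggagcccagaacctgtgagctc
The *Zyx* window held 1 AP-1 and 2 Sp1 matches, that of *Itgb7* 1 PU.1 match, that of *Itgb5* 3 Sp1 matches and that of *Itgbl1* 1 Sp1 match. Over the 31 windows of 28 members, AP-1 letters were found in 4 (*Itga3*, *Itga9*, *Itgax* and *Zyx*) and PU.1 letters in 5 (*Itga11*, *Itgav*, *Itgb2l*, *Itgb6* and *Itgb7*), against 7.81% and 3.2% of the 32851 windows in the table. Sp1 letters were found in 16 of 31 against 35.7% of all, and the letters of TEAD (GGAATG) in 3 (*Itga10*, *Itgb1* and *Vcl*) against 14.7%. The SRF motif known as the CArG box was found in 3 (*Fermt2*, *Itgb6* and *Vcl*) against 1.63%. These are matches of letters only.

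Other genes of the focal adhesion were read from a list of 41, of which 40 were measured on every array and *Parvg* on none. Of the 40, 4 were higher and 4 lower in LuM1 than in Colon26 cells, 4 were higher and 1 lower in NM11 than in Colon26 cells, and 3 were higher and 6 lower in LuM1 than in NM11 cells. Over all named genes with a ratio these shares were 13.1% and 11.8%, 8.33% and 7.9%, and 11.1% and 8.5%. The highest log2 ratios for LuM1 over Colon26 were those of *Kank1* (2.81), whose product caps adhesions, and of *Lpxn* (2.42), a paxillin relative, and the lowest those of *Sorbs3* (-2.34), whose vinexin binds vinculin, *Cav1* (-1.64) and *Tns4* (-1.58). For NM11 over Colon26 the highest were *Lpxn* (2.33), *Fhl2* (1.71) and *Apbb1ip* (1.29), and the lowest were *Lims2* (-4.05), *Fyn* (-0.89) and *Tns2* (-0.82). *Lims2*, the gene of PINCH2, which binds integrin-linked kinase, was 1335 in Colon26 and 2577 in LuM1 but 80.6 in NM11 cells, so that LuM1 cells were 32.0-fold above NM11 cells. That comparison was next highest for *Kank1* (2.23) and lowest for *Sorbs3* (-2.98), *Fhl2* (-2.62) and *Cav1* (-1.97). The medians of the list were -0.11, 0.07 and -0.22.

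Surface partners and ligands of integrins were read from a list of 22 genes. Of the 17 with a ratio over Colon26 cells, 8 were higher and 3 lower in LuM1 cells, with a median log2 ratio of 1.11 over the 14 measured on both arrays against -0.13 over all named genes. In NM11 over Colon26 cells, 6 of 17 were higher and 1 lower (median 0.12), and in LuM1 over NM11 cells 2 of 18 were higher and 2 lower (median 0.43). The medians of all named genes were -0.02 and -0.11 there. Of all named genes with a ratio, 13.1% were higher and 11.8% lower for LuM1 over Colon26. The shares were 8.33% and 7.9% for NM11 over Colon26, and 11.1% and 8.5% for LuM1 over NM11. Among genes measured on both arrays, the highest log2 ratios for LuM1 over Colon26 were those of *Tgfbi* (3.48), a matrix protein that integrins bind, of the tetraspanin gene *Cd81* (2.48) and of *Vcam1* (2.22), the counter-receptor of α4β1. Among measured genes they were also the highest for NM11 over Colon26, at 3.70, 2.04 and 2.81. *Icam2*, a ligand of αLβ2, was not well above background in Colon26 cells and was 8116 ± 812 in LuM1 and 506.5 ± 50.8 in NM11 cells, so that LuM1 cells were at least 307-fold and NM11 cells at least 19.2-fold above Colon26 cells, and LuM1 cells 16.02-fold above NM11 cells. *Tnc* (tenascin-C) was detected in NM11 cells alone at 201 ± 20.5, at least 7.62-fold above Colon26 and at least 9.99-fold above LuM1 cells. Lowest over Colon26 cells were *Fbn1*, the gene of fibrillin-1, at -2.28 in LuM1 and -1.57 in NM11 cells, and *Ccn1*, a matricellular ligand of αvβ3, at -2.04 in LuM1 cells and -2.14 for LuM1 over NM11. *Fn1* (fibronectin) was 61264 in Colon26, 146728 in LuM1 and 81606 in NM11 cells. *Cdh1*, *Icam1*, *Madcam1* and *Vtn* were on no array.

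**Figure D4:**
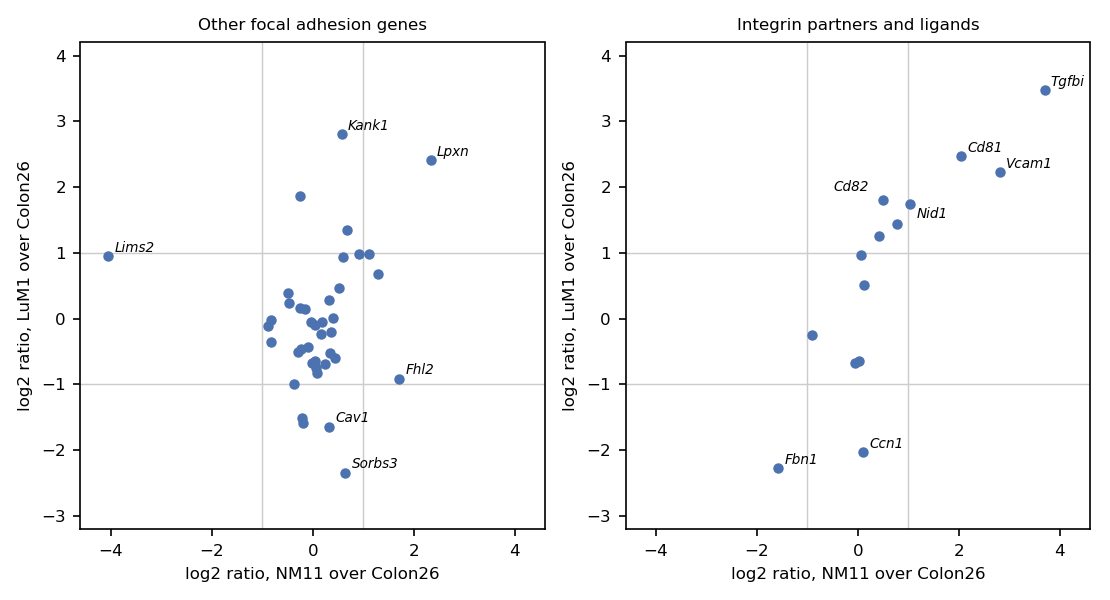
Log2 ratio of LuM1 over Colon26 (vertical axis) against that of NM11 over Colon26 (horizontal axis) for other focal adhesion genes (left) and for surface partners and ligands of integrins (right) measured on all 3 arrays, 1 point per gene, with lines at 2-fold. The axes share the Colon26 array; *Lims2* stands apart on the left at -4.05 on the horizontal axis, and *Tgfbi*, *Cd81* and *Vcam1* lie past 2-fold on both axes.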

How the data were processed

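The authors deposited the intensity of every spot from Agilent Feature Extraction 11.5.1.1, background-subtracted and detrended within each array, without scaling between arrays. The software's flags for outliers, saturation and detection were deposited with it. The deposited series table holds the same intensity values times a constant for each array (Colon26 0.654, LuM1 0.829, NM11 0.706), and the sources used here name no normalization. Controls and outlier spots were dropped, repeated probes averaged, and the 75th percentile (581.1 in Colon26, 625.1 in LuM1, 551.5 in NM11) brought to 585.1. Ratios were taken as log2. Of 56605 probes, 32994 (58.3%) were named through unversioned RefSeq accessions in a GRCm38.p6 gene table. No probe coordinates are given, since the design predates that assembly.

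The members and lists were chosen with earlier results of these data known. Members at least 2-fold different in any comparison are described in full, and the others by counts and ranges. For each list, the 3 largest measured log2 ratios in each direction are named, except where a gene is not reported here, and further genes of the lists were chosen after their values were seen. The alternatives were unscaled signals, scaling to *Hprt*, to E1A controls or to measured probes' median, quantile normalization, normexp correction (offset 50), the authors' values, a looser detection rule, no filter, a mean over probes, the probe brightest in LuM1 cells, and leaving out 3940 clustered spots of the Colon26 array. The normexp correction was planned for mean and run on median brightness. The code was tested on simulated data. Tools were pandas 2.3.3 and numpy 2.4.6 under Python 3.11.15, matplotlib 3.10.9 for plots, and limma 3.58.1 under R 4.3.3. The number of arrays limits the precision.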

Additional observations from a re-analysis of the deposited data

How the results depend on the processing

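All 21 member ratios past 2-fold kept their sign under the 12 alternatives (248 values), and 14 stayed past 2-fold wherever a value was given. Part of this was fixed beforehand. A ratio could not change sign while it stayed a bound. The choice of probe left genes with a single probe unchanged, and the detection rules left measured ratios unchanged. The count of kept signs is therefore no measure of how firm the ratios are. The other 7 fell within 2-fold under some alternatives (16 values). They were *Itga7* and *Itgb5* for LuM1 over Colon26, *Itga1*, *Itgad* and *Zyx* for NM11 over Colon26, and *Fermt3* and *Vcl* for LuM1 over NM11. *Itgad* had no ratio once clustered spots were left out, nor *Itga1* after normexp or with the probe brightest in LuM1 cells. For LuM1 over Colon26, the authors' values gave 11 members higher, 3 lower and a median log2 ratio of 0.42, counting spots significantly above background as measured gave 7 higher and a median of 0.25, and using no filter gave 7 higher. For NM11 over Colon26, scaling to *Hprt* gave 1 higher and a median of -0.31, scaling to E1A a median of -0.15, and the looser detection rule and no filter 5 higher each. For LuM1 over NM11, *Hprt* gave 8 higher, 1 lower and a median of 0.52, E1A 1 lower and a median of 0.26, the authors' values 7 higher, 1 lower and a median of 0.35, and the looser rule and no filter 5 lower each. The looser rule and no filter raised the counts of all named genes too. For LuM1 over Colon26, 2581 genes were higher under each, against 1855 in the main setting. For NM11 over Colon26, 1809 and 1810 were higher, against 1152. For LuM1 over NM11, 1843 were lower under each, against 1225. The median of all genes shifted by -0.49 (*Hprt*) and -0.33 (E1A) for NM11 over Colon26, by 0.59 and 0.33 for LuM1 over NM11, and by 0.11 and 0.18 without scaling for LuM1 over Colon26 and over NM11. With the detection rule kept, the bound for *Itgb3* over Colon26 ranged from 84.7 to 342-fold and that for *Itgbl1* from 52.1 to 185-fold lower. No paired analysis was possible because each line has 1 array. Dim spots (*Itga1*, *Itga2*, *Itga2b*, *Itgad*, *Itgae*, *Itgb6*, *Fermt3*) are limited by signal over background.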

Other observations

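Genes of the hemidesmosome, the keratin anchor that contains α6β4, were read as a list of 9 chosen after their values were seen, so the values are a description. *Plec*, the gene of plectin, which links β4 to keratin, had a signal of 13358 in Colon26, 23722 in LuM1 and 27254 in NM11 cells, with log2 ratios of 0.83 and 1.03 over Colon26 cells. *Lamb3* was well above background in LuM1 cells alone at 67.4, at least 2.55-fold above Colon26 cells. *Lama3* was lowest in NM11 cells at 36.4, a log2 ratio of -2.23 over Colon26. *Cd151*, the tetraspanin that binds α6 integrins, was within 2-fold in all lines.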
